A study of Mus musculus with 26 samples.

Results

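The 13 control libraries of the series, of 26 libraries in all, hold RNA from proximal small intestinal epithelium in which no gene had been deleted, and they were chosen by their labels as controls with no use of measured values. The series compared mice that lost SMAD1/5, SMAD1/4/5, SMAD4 or TBX3 from the intestinal epithelium with such controls, in 4 separate tables. Each library was made from poly(A) RNA of a whole epithelium preparation, which pools absorptive, secretory and crypt cells and any lymphocytes that lie among them. The question here is which genes dominate this tissue in every control, which hold their place from library to library and which do not.

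The controls form 5 groups. The SMAD1/5 line gave 3 controls at day 6 and 2 at day 30 after the first injection, all given tamoxifen. The SMAD1/4/5 line gave 3 controls at day 30, numbered 3 to 5 by the labels, the SMAD4 line gave 2 at day 6 and the TBX3 line gave 3 at day 30, all given corn oil. The protocol names 2 kinds of control, mice without the Villin-CreERT2 transgene given tamoxifen and mice that carry it given oil, so controls of either kind lack 1 of the 2 elements needed for deletion, and they are described as littermates matched for sex. Villin-CreERT2 is a tamoxifen-activated recombinase driven by the promoter of villin, which is active throughout the intestinal epithelium. Strain, age and sex of single mice are not given in the sources used here, nor is it stated that each library is 1 mouse, so the spread between libraries of a group may be partly technical. Line, day, injection and table move together in these groups and cannot be told apart, with the exception of the day 30 SMAD table, which holds 2 of the groups (the SMAD1/5 and the SMAD1/4/5 controls).

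The villus of the proximal small intestine is covered mostly by enterocytes, which digest and absorb fat, sugar, peptides, iron and vitamins through a brush border. Crypts between the villi hold dividing stem and progenitor cells together with Paneth cells, which secrete lysozyme and the antimicrobial alpha-defensins, and goblet cells secrete mucus along the whole axis. Many absorptive genes are also zoned along the length of the gut, so that the duodenum differs from the jejunum and the ileum.

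The deposited values are FPKM, sequenced fragments per kilobase of transcript and per megafragment mapped, which are scaled for gene length and so can be ordered within a library. The 4 tables were normalised separately, so genes were ranked within each library over the 13896 symbols that the tables share, with rank 1 for the highest FPKM, and the ranks rather than the levels are compared across tables, with no test. Values are listed in the order day 6 SMAD1/5, day 30 SMAD (SMAD1/5 controls 1 and 2, then SMAD1/4/5 controls 3 to 5), SMAD4, TBX3. From the steps between low values the depth was about 12.3 to 28.2 megafragments per control library, and it could not be read for the SMAD4 controls. The 10 highest genes took 7.66% to 15.6% of the summed FPKM of a control library, and between 223 and 479 genes made up 50% of it.

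Epithelial markers ranked high in every control and markers of the underlying tissue low. All 20 genes of the brush border and epithelial list had a median rank within the first 2000, among them Vil1, the actin bundler of microvilli, at a median rank of 23, and Krt8, an epithelial keratin, at 38. Its median rank lay between 58.5 and 191.5 in the 13 libraries. The ranked members of the fibroblast and smooth muscle list (9 of 15) had list medians between 12058 and 13063, with the matrix proteoglycan gene Dcn at a median rank of 12187. All 5 ranked endothelial genes and all 12 ranked myeloid genes had median ranks above 6000. T cell and intraepithelial lymphocyte genes were present at list medians between 5261 and 8061, led by Gzma, a granule protease of lymphocytes, at a median rank of 859. In bulk RNA of this kind, fewer cells of a type and less RNA per cell cannot be told apart.

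Fat absorption led the expression of normal epithelium. Apoa1, the main protein of the lipoproteins that enterocytes release, stood at rank 1 to 4 in all 13 libraries and was the only gene within the first 10 in every one. Its ranks were 2, 1 and 1, then 1, 2, 2, 2 and 2, then 4 and 3, then 1, 1 and 1. Apoa4, a second chylomicron apolipoprotein, ranked 2 to 13, and the cytosolic fatty acid binding proteins Fabp1 and Fabp2 ranked 4 to 21 and 2 to 18. Rbp2, which carries retinol inside enterocytes, ranked 3 to 11, with 13.1% of the variation of its log2 rank lying between tables. Of the 26 genes of the lipid absorption list, 9 had a median rank within 100, and 7 of these were within the first 100 in every library. Mttp, which loads lipid onto apolipoprotein B, was the steadiest of all genes of the highest class, at rank 41 to 73.

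In all, 33 genes were within the first 100 of every control library and 13 within the first 50, whereas 204 genes reached the first 100 in at least 1 library. Besides the lipid genes, the 20 genes of smallest median rank included Anpep, an aminopeptidase of the brush border (rank 4 to 36), Pigr, which carries secretory antibody across the epithelium (6 to 28), and Fth1, the heavy chain of the iron store ferritin (2 to 32). Selenop, a secreted selenium carrier, ranked 3 to 59. B2m, the light chain of MHC class I, ranked 7 to 36, and Eef1a1, a translation elongation factor, 7 to 55. Smim24, a small membrane protein, ranked 8 to 44, and Prap1, a secreted protein rich in proline, ranked 8 to 108.

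Reg3b, a secreted lectin that binds bacteria, is also among the highest genes, yet it moved within tables. It was rank 1 in both SMAD4 controls and in 3 of the 5 day 30 SMAD controls (8, 1, 6, 1 and 1), and ranked 16, 7 and 21 in the day 6 SMAD1/5 controls and 6, 12 and 5 in the TBX3 controls. Within the day 30 SMAD table its FPKM was 4302 and 11730 in the SMAD1/5 controls and 5335, 12760 and 22910 in the SMAD1/4/5 controls, so the 2 groups overlap.

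**Figure D1:**
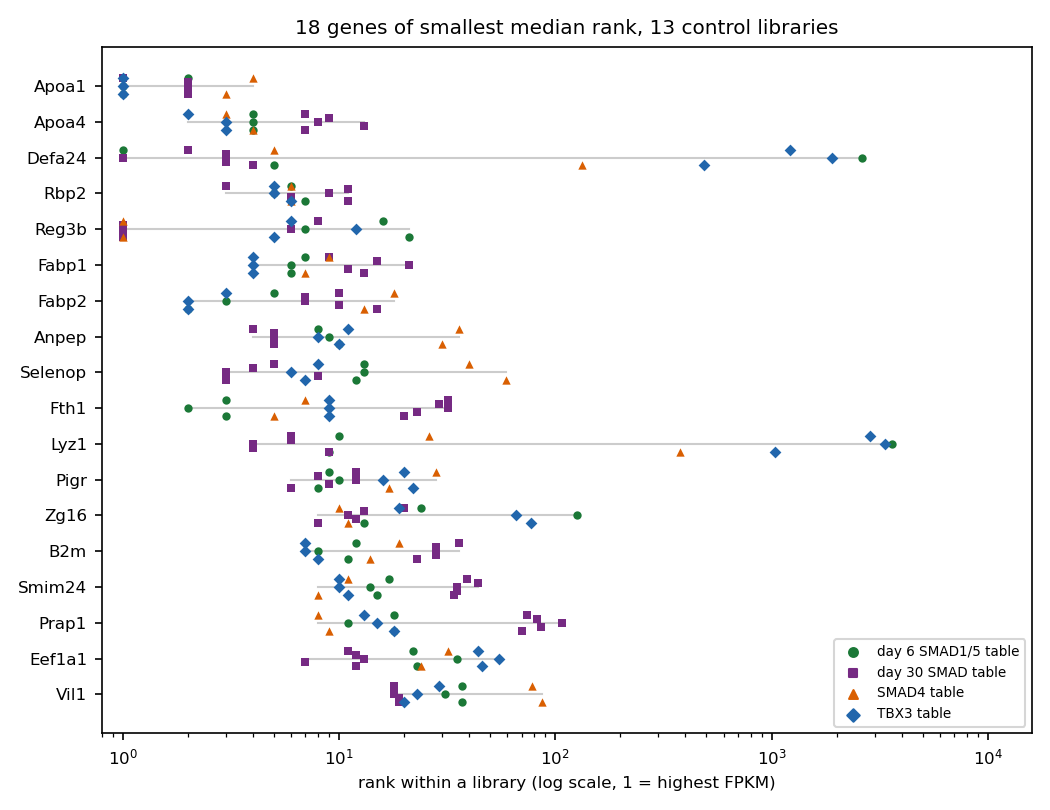
Rank of 18 of the 20 genes of smallest median rank in each control library (log axis, rank 1 is the highest FPKM). Each point is a library, coloured by table, and the grey line spans the lowest to the highest rank. Apoa1 spans 1 to 4, while the Paneth cell genes Defa24 and Lyz1 reach ranks 2621 and 3599.

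The other absorptive lists differed in level. The list median lay between 130 and 339 for lipid absorption, 89 and 351 for peptidases, 106 and 304 for carbohydrate, and 395 and 801 for amino acid and peptide transport. In the peptidase list 7 of 15 ranked members had a median rank within 100, with Mep1b, a subunit of the metalloprotease meprin, at 46 and Ace, the dipeptidase angiotensin-converting enzyme, at 59. In the carbohydrate list 5 of 12 did, among them Sis (sucrase-isomaltase) at 46, Mgam (maltase-glucoamylase) at 56 and Slc5a1, the sodium-glucose transporter, at 61. No member of the amino acid and peptide transporter list had a median rank within 100. Its highest were Slc6a19, a transporter of neutral amino acids, at 134, and Slc15a1, the peptide transporter PEPT1, at 249.

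Promoter sequence was examined for the genes that dominate, those that hold their place and those that vary. Promoters of 300 bases, 250 before to 50 after a RefSeq start on GRCm38.p6, were searched for TATAAA on the gene's strand within 40 to 16 bases before the start, where the TATA box that places RNA polymerase II lies. It was present in 4 of 35 promoters (11.4%) of the genes within the first 100 everywhere, of which 28 of 33 had an entry, and in 1 of 62 promoters (1.61%) of the steady genes described next. It was also present in 14 of 140 promoters (10%) of the varied genes described further on, with 6 of 18 (33.3%) for those that varied inside a table. These sets share genes with each other and with the genes within the first 100, and Reg3b is in each. Of the 29 genes that varied inside a table, many of them alpha-defensins, 17 had an entry. TATAAA was held by 1.46% of the promoters of all ranked genes and by 1.99% of all promoters searched. The stretches that follow show Reg3b and Fabp1, which have it 29 and 30 bases before the start, and the steady gene Map2k3, which does not. Each runs from 50 bases before the start onward for 70 bases, 5′ to 3′ on the gene's strand, and the capitals mark TATAAA.
Reg3b, chr6:78370835-78370904, plus strand: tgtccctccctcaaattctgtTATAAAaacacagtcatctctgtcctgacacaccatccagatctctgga
Fabp1, chr6:71199829-71199898, plus strand: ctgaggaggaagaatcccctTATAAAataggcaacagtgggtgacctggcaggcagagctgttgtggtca
Map2k3, chr11:60932004-60932073, plus strand: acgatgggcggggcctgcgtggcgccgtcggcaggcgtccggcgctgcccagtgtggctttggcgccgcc
The motif is a match of letters and not a measured site. Apoa1 and Apoa4, the 2 highest genes, have no TATAAA in this window. On both strands of the whole 300 bases, CAAAGTCCA, a motif of HNF4, was found in 0 of the 35 promoters (0.528% of all ranked promoters), AGATAAG, a motif of GATA factors, in 2 (2.04%) and TTTATTG, a motif of CDX factors, in 2 (2.64%).

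Steady genes were defined as those of median rank up to 2000 whose worst rank was at most 1.5 times the best, and there were 64 among 1926 genes. Of these, 3 were in any of the lists used, against 66 of the 156 varied genes described further on and 247 (12.8%) of the 1926. The lists hold ribosomal, stress and immune genes as well as those of intestinal function, and were chosen with earlier results of these data known. These counts can therefore reflect that choice and are no support for a difference in kind between steady and varied genes. The steadiest was Adipor1, a receptor of the hormone adiponectin, at rank 1762 to 1976. Rtcb, an RNA ligase of tRNA splicing, ranked 1737 to 2111, Map2k3, a kinase of the p38 pathway, 1135 to 1436, Rnh1, an inhibitor of ribonucleases, 1081 to 1395, and Cant1, a nucleotidase of the Golgi, 1218 to 1590. Higher in the order, Tmem120a, a membrane protein, ranked 390 to 534, Taldo1 (transaldolase, of the pentose phosphate pathway) 234 to 325, Arf4, a GTPase of Golgi traffic, 357 to 508, Dhrs1, a short-chain dehydrogenase, 219 to 316, and Arpc2, a subunit of the actin nucleator Arp2/3, 275 to 402. The ratio is easier to hold at lower levels, so no gene of median rank up to 100 met it, Mttp with a ratio of 1.78 and Cldn7, a claudin of tight junctions, with 1.86 coming nearest. Just inside the limit lay Stk24, a protein kinase, at 1.49 and just outside it Rab8a, a GTPase of vesicle traffic, at 1.503. The median ratio was 4.83 over genes of median rank up to 100, 3.57 over the next up to 500, 2.48 over the next up to 2000 and 1.86 over the next up to 6000.

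In that lowest class the steadiest genes included Zc3h14, a poly(A) binding protein (4109 to 4501), Ttc17 (5395 to 6019), Gpatch2 (5506 to 6180) and Fkbp15 (5458 to 6154).

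**Figure D2:**
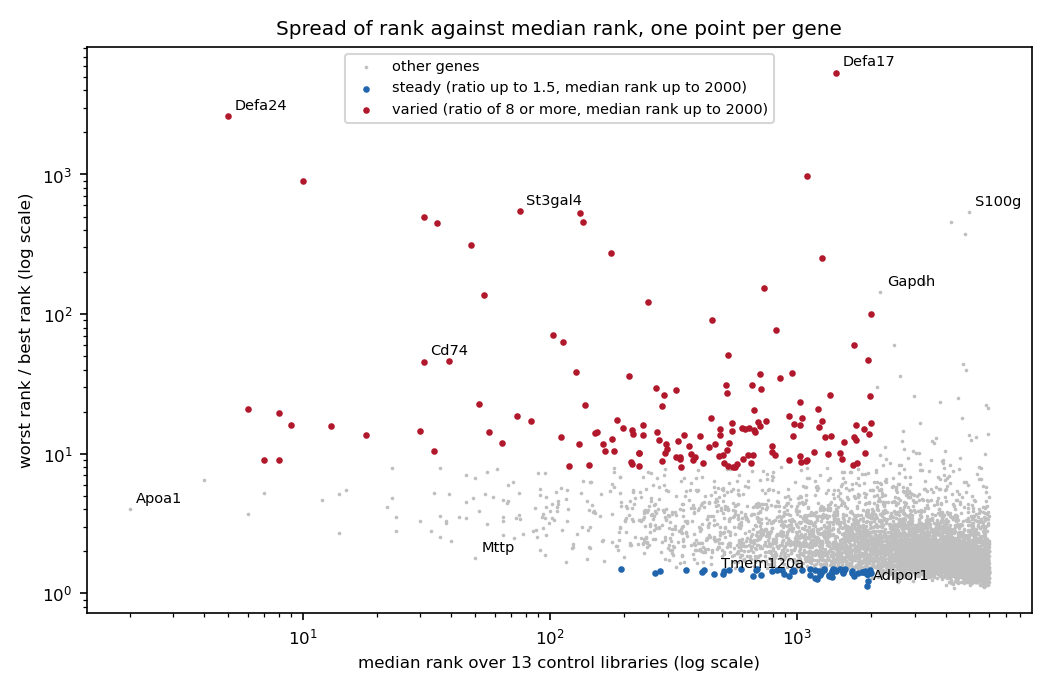
Worst rank divided by best rank over the 13 control libraries against median rank, both on log axes, for genes of median rank up to 6000. Each point is a gene. Blue points are the 64 steady genes and red points the 156 varied genes.

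Genes often used as references were not the steady ones. Of the 16 ranked members of the reference list 10 had a median rank up to 2000, and of these none was steady and 2 were varied. Actb (beta-actin) ranked 15 to 42 and had 62.1% of its variation between tables. Gapdh, a glycolytic enzyme, ranked 2347, 1894 and 2180, then 2123, 2929, 2609, 2196 and 2444, then 34 and 25, then 3601, 1503 and 1211. The SMAD4 controls stand far above all others, and the SMAD4 knockouts of that table rank the same, at 21 and 21. Rpl13a, a ribosomal protein, ranked 241 and 196 in the SMAD4 controls and 4118 to 7787 in the others. Ppia (cyclophilin A) ranked 107 and 85 in the SMAD4 controls and 304 to 1526 elsewhere.

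Varied genes, of median rank up to 2000 with a worst rank at least 8 times the best, numbered 156. Just inside this limit lay Hpgd, which degrades prostaglandins, at a ratio of 8, and just outside it Eif4g2, a translation initiation factor, at 7.99. Of the 156, 29 reached that ratio inside a single table and 62 stayed under a ratio of 2 inside every table, so that their spread lies between tables. Across the 1926 genes of median rank up to 2000 the median share of variation of log2 rank between tables was 89.96%, while 3 of the 12 degrees of freedom lie between the 4 tables. Ranks of 2 libraries of the same table correlated at Spearman 0.973 to 0.990 over genes (17 pairs), and of different tables at 0.900 to 0.970 (61 pairs). The closest tables were day 6 SMAD1/5 and TBX3, at 0.944 to 0.970. These are correlations over genes of libraries that share a table, and genes are not independent replicates.

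Paneth cell genes varied most, and inside tables. Of 18 Paneth genes on the list, 12 were varied, and 12 of the 29 genes that varied inside a table were on this list. Others of the 29, among them DEFA39, Defa20, Defa23 and Defa29, are alpha-defensins that the list does not hold. Defa24, an alpha-defensin, ranked 1, 2621 and 5 in the day 6 SMAD1/5 controls, 2, 3, 1, 3 and 4 in the day 30 SMAD controls, 5 and 133 in the SMAD4 controls and 1218, 1906 and 488 in the TBX3 controls. Its FPKM in the day 6 SMAD1/5 controls was 4451, 18.6 and 3507. The second of these controls, the second SMAD4 control and all 3 TBX3 controls were thus low, and the other 8 libraries had this gene within the first 5.

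Lyz1, the Paneth cell lysozyme, was low in the same 5 libraries, at ranks 10, 3599 and 9, then 6, 6, 4, 4 and 9, then 26 and 376, then 2849, 3331 and 1037. Ang4, an antimicrobial ribonuclease, ranked 77, 6089 and 193, then 29 to 177, then 145 and 4786, then 7954, 7561 and 5951. Mptx2, a Paneth cell pentraxin, ranked 93 to 262 in the libraries with high Defa24 and 3026 to 11376 in the other 5. Defa30 spanned ranks 11 to 5479, Defa21 17 to 8977 and Defa22 19 to 8671. The median rank of the whole Paneth list was 434.5, 9228.5 and 562, then 474 to 878, then 186.5 and 2521, then 8299, 8725.5 and 6213.5, and none to 2 of its 18 members were listed at 0 in a library.

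Some alpha-defensins differed between tables as well. Defa17 ranked 2 and 81 in the SMAD4 controls, against 339 to 1460 in the day 30 SMAD controls, 1366, 9817.5 and 1494 in the day 6 SMAD1/5 controls and 7680 to 10717.5 in the TBX3 controls. Defa23 ranked 14 and 476 in the SMAD4 controls and 804 to 4556 in the day 30 SMAD controls. The alpha-defensins are a multigene family of near-identical members, so their counts may be split between copies and single members are uncertain.

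Genes of stem and dividing cells ranked lower in the second day 6 SMAD1/5 control and the TBX3 controls than in the other controls. Olfm4, a marker of crypt base stem cells, ranked 159, 614 and 153, then 178 to 307, then 296 and 433, then 611, 1791 and 737. The list of intestinal stem cell genes had a median rank of 5685, 8045.5 and 5661.5 in the day 6 SMAD1/5 controls, 4834.5 to 5587.5 in the day 30 SMAD controls, 6444 and 6751 in the SMAD4 controls and 7364 to 9059.5 in the TBX3 controls. The cell cycle list had 5363, 7013 and 5623.5, then 4160 to 5028.5, then 4913.5 and 5045.5, then 7574 to 8696.5. Top2a, the topoisomerase of dividing cells, ranked 3430, 5830 and 3597, then 1026 to 1674, then 2783 and 3161, then 6460, 8614 and 6647. The second SMAD4 control, low for Paneth genes, thus lay near the first in the cell cycle list. The share of crypt in each preparation was not measured, and its part in these ranks was not tested.

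Goblet cell genes showed a smaller spread of the same kind. Zg16, a lectin of the mucus layer, ranked 24, 126 and 13, then 8 to 20, then 10 and 11, then 19, 66 and 77. Tff3, the trefoil peptide of goblet cells, ranked 29, 123 and 19, then 26 to 37, then 13 and 12, then 49, 175 and 126. Of 13 ranked goblet genes 7 were varied. The enteroendocrine hormone gene Gip ranked 437 to 963, a ratio of 2.204, and the hormone gene Cck 715 to 3946, a ratio of 5.52.

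**Figure D3:**
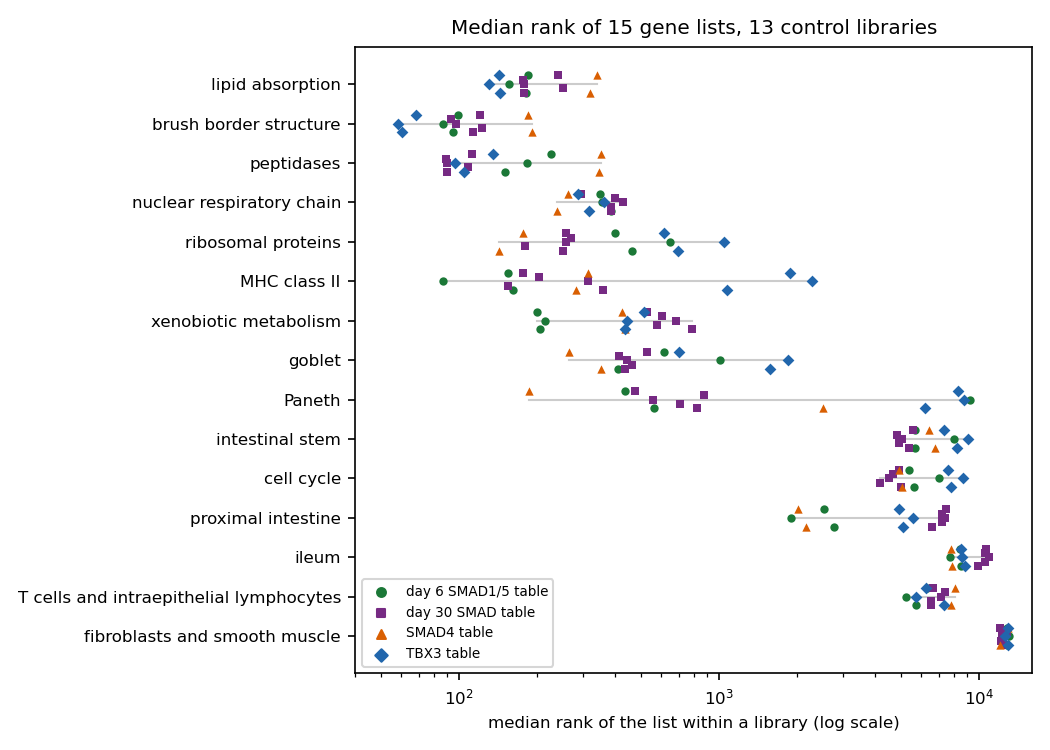
Median rank of the members of 15 gene lists within each control library (log axis). Each point is a library, coloured by table, and the grey line spans the range. The Paneth list runs from 186.5 to 9228.5, while the brush border list stays between 58.5 and 191.5.

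Without the 5 libraries low in Paneth genes, 54 genes were varied, of which 53 were among the 156, and 215 were steady, including all 64. Fewer libraries can only lower the ratio of a gene or leave it as it was. The choice of these 5 libraries was made after the values were seen, and it removes the whole TBX3 table.

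Other genes had nearly all of their spread between tables, 97.9% for S100g and 98.3% for Akp3, against a median of 69.9% over the Paneth list. A high share is not particular to them. The median was 89.96% over the 1926 genes of median rank up to 2000, and 79 of the 156 varied genes had over 90%. S100g (calbindin D9k), the vitamin D-induced calcium carrier of the duodenum, ranked 86, 25 and 94 in the day 6 SMAD1/5 controls and 16 and 26 in the SMAD4 controls, but 5671 to 8558 in the day 30 SMAD controls and 2649, 6197 and 4959 in the TBX3 controls. In FPKM the day 6 SMAD1/5 controls held 479, 1249 and 427 for S100g, and the day 30 SMAD controls 14.6, 5.08, 11.4, 9.48 and 15.7. Akp3, an alkaline phosphatase of the proximal brush border, ranked 30, 20 and 33, then 4780 to 7485, then 29 and 60, then 2028, 7300 and 5281. For both genes, which were named for their large spread, the controls taken at day 6 and those taken at day 30 do not overlap in rank. How many of all ranked genes separate in this way was not counted. Among the knockout libraries, S100g ranked 76 to 205 and 82 to 146 in the 2 day 6 tables, with 4184 to 6597 for those deleted of SMAD1/5 or SMAD1/4/5 at day 30 and 425 to 7111 for those deleted of TBX3. Akp3 ranked 121 to 280 and 114 to 153 in the 2 day 6 tables, and 6723 to 8111 and 746 to 8063 in the 2 day 30 tables. The TBX3 knockouts thus extend both above and below the range of the TBX3 controls in both genes.

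Other genes of the proximal gut also ranked higher in the day 6 tables, some at low levels. Tmprss15 (enteropeptidase), which activates trypsinogen in the duodenum, ranked 689 to 907 in the day 6 SMAD1/5 controls, 1022 and 1202 in the SMAD4 controls, 5229 to 7136 in the day 30 SMAD controls and 2916 to 4675 in the TBX3 controls. Onecut2, a transcription factor of the duodenum, ranked 3017 to 3614, 4161 and 4285, 7740 to 8467, and 4733 to 5720 in the same order. The other 2 were chosen after their values were seen. Pdx1, a transcription factor of the duodenum and pancreas, ranked 2476 to 4118 and 2820 to 3040 in the day 6 tables and 9977 to 12044 in the day 30 tables. Slc40a1 (ferroportin), which exports iron, ranked 948 to 2173 in the controls of day 6 and 6638 to 10954 in those of day 30, while the knockouts of the day 30 SMAD table ranked 1501 to 3862.

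The 3 highest genes of the proximal list did not separate by day. Gata4, the transcription factor that keeps proximal identity, ranked 949 to 1602 in all 13, Lct (lactase) 52 to 273 and Fabp1 4 to 21. Of the 6 genes of the ileum list, 4 had median ranks above 6000, among them Slc10a2, the ileal bile acid transporter, at rank 7139 to 11831. The other 2, the subunits of the basolateral bile acid exporter, ranked high, Slc51a at 258 to 1121 and Slc51b at 286 to 2433. The median rank of the ileum list was 7772 to 8801 in the controls outside the day 30 SMAD table and 9934 to 10893 within it. The length of gut taken in each experiment is not given in the sources used here, and with day, line and table it cannot be told apart from the other differences between the tables.

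**Figure D4:**
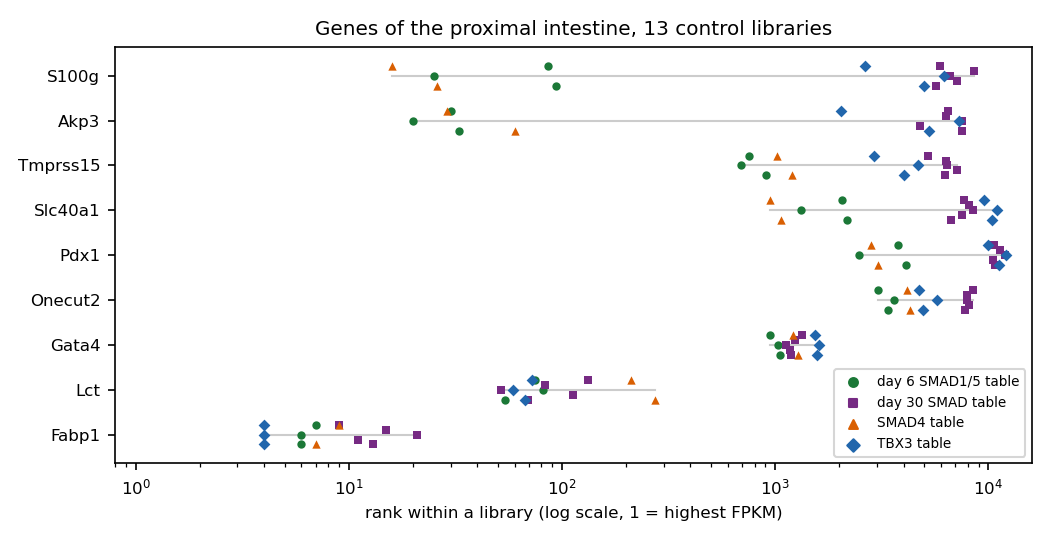
Rank within each control library (log axis) of 9 genes expressed in the proximal intestine. Each point is a library, coloured by table. S100g, Akp3, Slc40a1 and Pdx1 fall into the 2 tables of day 6 and the 2 of day 30, while Gata4, Lct and Fabp1 do not.

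MHC class II genes, which enterocytes use to present antigen when stimulated by interferon gamma, ranked lower in the TBX3 controls than in every other control for the members named here. Cd74, the invariant chain, ranked 23, 12 and 29, then 21 to 33, then 33 and 18, but 378, 548 and 202 in the TBX3 controls. H2-Aa ranked 60 to 120, 124 to 359, 74 and 92, and 1077 to 2289 in the same order. Of 7 genes in the list 5 were varied, and its median rank of 1077 to 2289 in the TBX3 controls compares with 87 to 359 in the other 10 libraries. In the TBX3 knockouts of the same table Cd74 ranked 36 to 80, outside the range of the 3 controls. The interferon response list had median ranks of 5303.5 to 5933.5 in the TBX3 controls and 5596 to 8056.5 in the others. Of its 22 ranked genes 14 had median ranks above 6000. Any part of interferon in the ranks of the MHC class II genes was not tested.

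Detoxification genes stood highest at day 6 in the SMAD1/5 line. The list of 29 had median ranks of 199, 215 and 205 there, 425 and 437 in the SMAD4 controls, 437 to 517 in the TBX3 controls and 531 to 791 in the day 30 SMAD controls. Gstm3, a glutathione transferase, ranked 32, 32 and 38, then 421 to 1144, then 106 and 40, then 186 to 295. Gsta1, another, ranked 163 to 425, 1172 to 8818, 148 and 197, and 2597 to 6005. Cyp3a13, a cytochrome P450, ranked 41 to 47, 187 to 708, 247 and 437, and 55 to 58.

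None of the 16 ranked clock genes was varied, and the median ratio of that list was 1.91. Its most spread members were Dbp and Nr1d2. Dbp, a transcription factor with a strong daily rhythm, ranked 2322, 2137 and 2041, then 5312 to 6771, then 1957 and 8557, then 2334, 2350 and 3844. The 2 SMAD4 controls were thus the highest and the lowest of all 13. Nr1d2, a clock repressor, ranked 4248 and 5781 in these 2 and 1404 to 3241 in the others. Pdk4, a kinase induced by fasting, ranked 3826 and 8244 in the SMAD4 controls, 1366 to 6075 in the day 30 SMAD controls and 993 to 1362 in the TBX3 controls. The hour of collection and feeding state are not given in the sources used here.

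Some genes stood apart in a single library. Duox2, which makes hydrogen peroxide at the surface of the epithelium, ranked 365 in the first SMAD1/5 day 30 control and 1899 to 5279 in the 4 other controls of its table. Hsph1, a heat shock protein, ranked 890 in the first SMAD4 control and 6184 in the second. The Y-linked genes Eif2s3y, Ddx3y and Uty were listed at 0 in 4 of the 13 libraries, the third day 6 SMAD1/5 control, the second SMAD1/5 day 30 control and SMAD1/4/5 controls 3 and 5, so both sexes occur among the controls and within 3 of the 5 groups.

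The genes deleted elsewhere in the series were all present in the controls. Smad4, the common partner of the receptor SMADs, ranked 715 to 1186 in 11 controls but 3218 and 3462 in the SMAD4 controls. Smad1 ranked 3123 to 4703 and Tbx3 926 to 2585. Id1, a target of BMP signalling, ranked 853 to 1210, then 2196 to 2415, then 1249 and 1460, then 595 to 896.

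Genes with near-identical copies made up many of the differences between tables. A copy was counted where another gene of GENCODE M21 (mm10) matched at least 50% of the coding sequence at 95% identity or more. Of the varied genes 67 of 152 with a transcript (44.1%) had one, against 15.6% of the 1896 genes of median rank up to 2000 and 14.3% of 63 steady genes. Of the 62 genes that varied between tables but by under 2 inside each, 39 (62.9%) had a copy, and 29 of these 39 ranked best in the SMAD4 table. Of the 23 without a copy, 9 ranked best there. The symbols of ribosomal proteins (Rpl or Rps) were 37 of the 156 varied genes and 73 of the 1926. How reads that match several copies were counted is not given in the sources used here, and 2 genome builds are named without saying which table used which.

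The only test between control groups that share a table called mostly genes with near-identical copies. In the day 30 SMAD table the SMAD1/5 controls (tamoxifen) were compared with the SMAD1/4/5 controls (oil) by limma on log2(FPKM + 0.5). Of 11591 genes tested, 4 passed a Benjamini-Hochberg adjusted p of 0.05, which is 0.0345% of them, 2 higher (0.0173%) and 2 lower (0.0173%) in the SMAD1/5 line, and 581 had an unadjusted p under 0.05.

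Of the 4 genes, 3 form a family. Rplp0, which encodes an acidic protein of the large ribosomal subunit, had FPKM of 325 and 321 in the SMAD1/5 controls and 879, 1010 and 830 in the SMAD1/4/5 controls. It fell by 1.48 on the log2 scale (SE 0.13, adjusted p = 0.0291, limma). Gm8730, a processed pseudogene copy of Rplp0, had 404 and 371 in the SMAD1/5 controls and 0.917, 2.85 and 1.94 in the others. It was higher by 7.42 (SE 0.33, adjusted p = 3.1e-04, limma), and a second copy, Gm9625, by 6.17 (SE 0.19, adjusted p = 6.9e-05, limma), with FPKM of 51.2 and 43.5 against 0.141, 0.132 and 0.215. In none of the 3 do the groups overlap, as in 19.8% of all genes tested. The call on Rplp0 is lost with 4 of the other settings tried and when any of 3 single libraries is left out, with adjusted p-values between 0.0516 and 0.245.

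The coding sequence of Rplp0 (951 bases, gene at chr5:115559467-115563727, plus strand) and Gm8730 (chr8:102864845-102865798, minus strand) match at 98.7%, with 12 mismatches and no gap. The stretch from coding base 388 to 447 is shown because it holds 3 of the mismatches, which are in capitals, in mm10 and 5′ to 3′.
Rplp0: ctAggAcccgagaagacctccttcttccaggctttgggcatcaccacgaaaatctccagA
Gm8730: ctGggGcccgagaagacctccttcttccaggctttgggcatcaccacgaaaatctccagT
Gm8730 was high in some libraries and near 1 FPKM in others. In the day 6 SMAD1/5 controls it had 128, 79.2 and 0.892 FPKM, and in the TBX3 controls 2.39, 1.13 and 1.99. Of the day 6 knockouts 1 had 145 and 2 had 1.59 and 1.75, and both SMAD1/5 knockouts at day 30 were high, at 434 and 205, while the 3 SMAD1/4/5 knockouts had 1.03 to 1.9. The sum of Rplp0 and Gm8730 was 729 and 692 in the SMAD1/5 day 30 controls and 880, 1013 and 832 in the SMAD1/4/5 controls, still without overlap. Rplp0 is a common reference gene, and its own rank in the controls ran from 65 to 334.

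Gapdh has 72 near-identical copies by the same count, against 4 for Rplp0, and was set beside 1 of them, Gm13394. The values of this pair did not follow the pattern of Rplp0 and Gm8730. Gm13394, a predicted gene that matches Gapdh at 99.9% over 1000 bases, was named after its values were seen. In the TBX3 controls Gapdh had 11.8, 33.9 and 43.3 FPKM and Gm13394 541, 295 and 8.94, so the third control is highest in Gapdh and lowest in Gm13394. The sum of both was 553, 329 and 52.3 there, so it was not kept, but the other copies of Gapdh were not summed. In the day 30 SMAD controls Gm13394 had 518, 370, 180, 184 and 182 FPKM (log2 difference 1.26, adjusted p = 0.133, limma, and 0.0144 without the second SMAD1/5 control). Gapdh itself had 59.3 and 40.9 FPKM in the SMAD1/5 day 30 controls and 45.7, 55.2 and 50.6 in the SMAD1/4/5 controls, so the groups overlap. The SMAD4 table does not list Gm13394, and Gapdh had 2019 and 2080 FPKM in its controls.

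**Figure D5:**
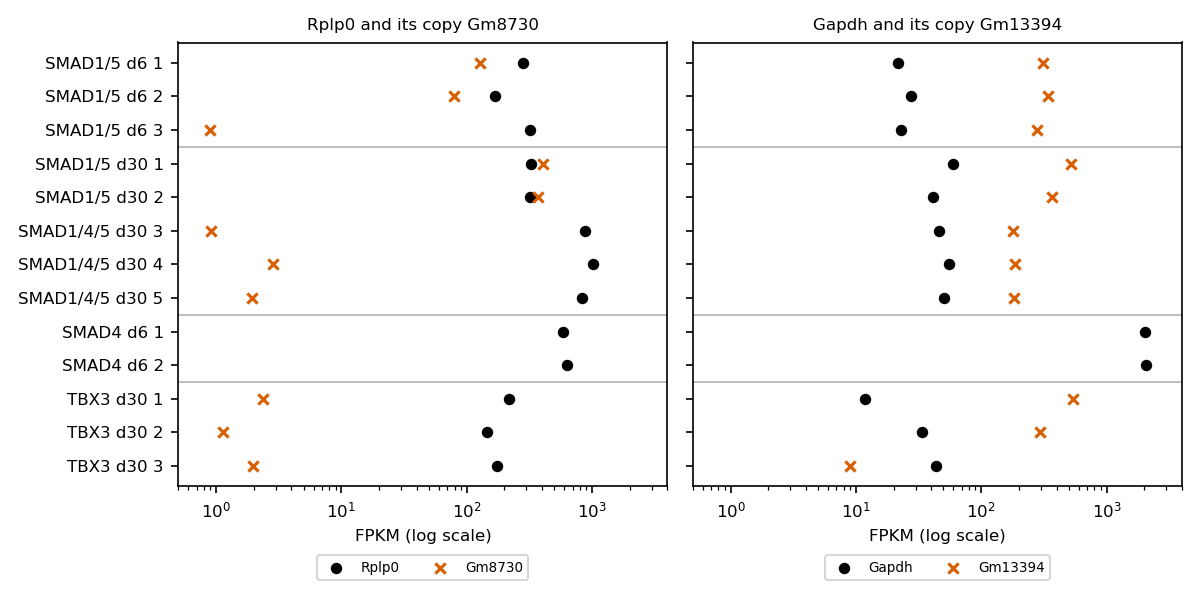
FPKM (log axis) of Rplp0 with its copy Gm8730, left, and of Gapdh with its copy Gm13394, right, in each control library. Grey lines separate the 4 tables, and the SMAD4 table lists neither Gm8730 nor Gm13394. Rplp0 is lowest in its table in the day 30 libraries in which Gm8730 is highest.

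Prodh2, which breaks down hydroxyproline, was the other gene past the threshold. Its FPKM was 1.91 and 1.86 in the SMAD1/5 controls and 28.3, 24.3 and 30.2 in the SMAD1/4/5 controls, so that it fell by 3.55 on the log2 scale (SE 0.14, adjusted p = 2.4e-04, limma). The call was lost when all 10 libraries of the table were fitted (adjusted p = 0.699, limma). It also differed inside the day 6 SMAD1/5 group, at 13.1, 1.04 and 0.75, and was at 0.255 and 0.288 in the SMAD4 controls and 0.285 to 0.563 in the TBX3 controls. In the 5 day 30 knockout libraries it ran from 0.292 to 27.7.

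St3gal4, a sialyltransferase, varied between and within tables, with a worst rank 544 times the best. Its FPKM was 24, 453 and 3.5, then 3027, 2439, 2628, 2627 and 2756, then 710 and 978, then 434, 1.57 and 473. The second TBX3 control and the third day 6 SMAD1/5 control were lowest, and no near-identical copy was found for it.

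No member of the 18 genes of the Paneth list, or of the lists for absorption, stem cells and goblet cells, passed in the test between the 2 control lines. In the xenobiotic list 11 of 29 genes had groups that do not overlap and were higher in the SMAD1/5 line and 1 was lower, with a median log2 difference of 0.20, where over all genes tested 10.5% were higher and 9.39% lower without overlap. Cyp2c29 had 60.6 and 29.1 FPKM against 11.3, 17 and 5.23 (adjusted p = 0.685, limma). In the interferon response list 8 of 21 were higher without overlap and 1 lower (median 0.25), with Usp18, which removes ISG15, at 28 and 18.2 FPKM against 6.16, 8.29 and 8.43 (adjusted p = 0.189, limma, and 0.0386 without the second SMAD1/5 control). In the enteroendocrine list 8 of 24 were higher and 1 lower (median 0.27), and in the immediate early list 5 of 13 were higher and none lower (median 0.29). No gene of these lists passed the threshold. Tamoxifen, the lack of Cre and the line differ together between these groups and cannot be told apart.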

How the data were processed

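The 13 control libraries of 26 were bulk RNA-seq of proximal small intestinal epithelium. FPKM per gene symbol were computed and deposited by the authors in 4 tables, 1 per experiment. The submitters' processing notes name HISAT2 2.2.1, Subread with featureCounts 2.0.1 and the builds GRCm39 and mm10. Strand setting and treatment of multimapping reads are not given in the sources used here. Symbols listed more than once (32 in the day 6 SMAD1/5 table and 9 in the TBX3 table) were dropped, and 13896 symbols remained in all 4, of which 13693 matched a reference table of mouse symbols. None was mitochondrially encoded.

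Genes were ranked within libraries. The day 30 control lines were compared with limma 3.58.1 (R 4.3.3) on log2(FPKM + 0.5), with a mean-variance trend, for genes with FPKM of at least 1 in at least 2 of the 5 libraries. Fold changes are on that scale and understate changes of low genes. The script was tested on simulated data, where, among 11418 genes, 46.9% of 98 genes changed 2-fold and 79.4% of 97 changed 4-fold were found, with 5 false calls. Copies were sought with blastn 2.17.0 in GENCODE M21, and promoter sequences are from RefSeq (GRCm38.p6).

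Named genes are the 20 of smallest median rank, the 5 steadiest and 5 most varied in each class of median rank, up to 4 highest and 4 most varied members of each list, and genes past the limma threshold, and symbols of predicted genes are named only in counts of 5 or fewer or where stated. A few genes that meet the rule are not reported here. The members and lists were chosen with earlier results of these data known. Alternatives left out libraries or tables, changed the genes ranked, the pseudocount, filter, scaling or trend.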

Additional observations from a re-analysis of the deposited data

How the results depend on the processing

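The count of 33 genes within the first 100 everywhere stayed between 32 and 45 under all 8 changes of genes, tables or libraries, and between 33 and 37 with single libraries left out. Leaving out libraries cannot lower this count. The 64 steady genes became 109 without the day 6 SMAD1/5 table, 302 without the day 30 SMAD table, 220 without the SMAD4 table and 122 without the TBX3 table, since fewer libraries constrain the ratio, and 67 to 91 with single libraries left out. At least 63 of the 64 were kept in each of those 4, but a ratio can only fall or stay when libraries are left out, so this is no support. With all genes of each table ranked, 55 genes were steady, of which 52 were among the 64. The varied genes were 8.10% of those of median rank up to 2000. They were 5.20% without the day 30 SMAD table, 4.65% without the SMAD4 table and 6.93% to 8.02% with single libraries left out. Without the libraries low in Paneth genes, chosen after seeing the data, 215 were steady and 54, or 2.74%, varied. The median share of variation between tables, 89.96%, was 87.0% without the day 30 SMAD table, 85.3% without the SMAD4 table, 87.5% without the TBX3 table, 89.3% without the libraries low in Paneth genes and 89.3% to 91.4% with single libraries left out.

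The 4 calls between the day 30 control lines became 2 when all 10 libraries of the table were fitted. They became 3 to 38 with single libraries left out, 38 without the second SMAD1/5 control, which leaves a lone library assumed to vary like the others, and 10 without SMAD1/4/5 control 4. Gm8730 passed in every setting tried. Gm9625 passed in all settings that tested it, and was not tested without either SMAD1/5 control, where it does not reach the minimum in 2 libraries. Prodh2 lost its call with all 10 libraries (adjusted p = 0.699, limma). The log2 difference of Gapdh, not past the threshold, ran from -0.30 to 0.23 with single libraries left out and reversed without the second SMAD1/5 control (0.23) and without SMAD1/4/5 control 4 (0.03). That of Ifit1 ran from -0.25 to 0.57 and reversed without the second SMAD1/5 control (-0.25). No paired analysis was possible because the 2 day 30 control groups share no replicate number. Of 1561 median ranks of named genes under other settings, 1544 moved by less than the SD over libraries. That SD includes the differences between tables, and many settings left out a single library, so larger moves were unlikely and this is no support. Depth could not be read for the SMAD4 table, and no interval or limit of detection is given.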
